A study of Mus musculus with 3 samples.

Results

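The Rab GTPases are the largest branch of the Ras superfamily of small GTP-binding proteins. The genes were taken as every gene whose deposited symbol was Rab followed by a number and at most a letter and a further digit, which leaves out effectors such as Rab11fip1. The RefSeq annotation of GRCm38.p6 holds 59 such genes among 21031 protein-coding genes. Of these, 38 had at least 1 peak assigned to them. They held 80 of the 34501 peaks analysed: 33 of 16937 Foxp4 peaks and 47 of 17564 H3K27ac peaks.

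The peaks come from chromatin immunoprecipitation with sequencing (ChIP-seq) of mouse beige adipocytes, heat-producing cells of white fat depots. Stromal-vascular cells taken from the inguinal fat of C57BL/6 mice had been turned into adipocytes in vitro. The series comprises 3 libraries: input DNA, a ChIP of the forkhead transcription factor Foxp4 and a ChIP of H3K27ac, the acetylation of histone H3 at lysine 27 found at active promoters and enhancers. All 3 share the same cells and treatment. Stromal-vascular cells were grown with 20% fetal bovine serum for 3 days and then to confluence. They were induced for 48 h in 10% serum with the hormones insulin (5 µg/ml) and T3 (50 nM), the glucocorticoid dexamethasone (1 µM), the phosphodiesterase inhibitor IBMX (0.5 mM) and the PPARγ agonist troglitazone (5 µM). For 6 more days only insulin, T3 and troglitazone were given. The labels describe the immunoprecipitation with a Foxp4 antibody for every library and name none for H3K27ac. They do not say how many mice or cultures were used. The input was not analysed here. With 1 library per antibody there was no replicate and no test between conditions. Shares are therefore read only against those over all protein-coding genes or all peaks. For every gene list these are 26.0% for an H3K27ac promoter peak and 6.77% for a Foxp4 promoter peak. The intervals given are 95% Clopper-Pearson (exact) ones, limited to counting error. Depth is unknown from peak lists, so absence of a peak means only that none was called.

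Rab proteins cycle between an inactive GDP-bound and an active GTP-bound form and mark the membranes between which vesicles move. Exchange factors load them with GTP, GTPase activating proteins switch them off, a geranylgeranyl transferase attaches them to membranes, and GDP dissociation inhibitors (GDI) take them out again. In fat cells they are best known for insulin-stimulated delivery of the glucose transporter GLUT4 to the plasma membrane, and for their presence on lipid droplets.

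The labelled cell type was compared with marker genes. An H3K27ac promoter peak, meaning one whose centre lay within 1000 bp of a transcription start in the deposited distance column, was present at 6 of 8 adipocyte markers. The other two were Fabp4, which had 2 H3K27ac peaks elsewhere, and Adipoq, which had none. Of 8 beige fat markers 0 had one, and Ucp1, Prdm16 and Dio2 had no peak in either list. Stromal progenitor markers had 2 of 7 (Pdgfra and Ly6a) and macrophage markers 1 of 5 (Cd68). Endothelial, skeletal muscle and neuronal markers had 0 of 4 each. H3K27ac peaks elsewhere were assigned to some of them: counting any assigned peak, 4 of 8 beige, 5 of 7 progenitor, 2 of 5 macrophage, 3 of 4 endothelial (Pecam1, Cdh5 and Kdr) and 1 of 4 neuronal markers had one, against 37.5% of all genes. The part of other cell types in the Rab values was not tested.

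The sequences directly upstream of 6 Rab starts show the kinds of promoter to which the values belong. Promoter sequences of 48 of the 59 Rab genes, 60 starts in all, were matched in the RefSeq set of GRCm38.p6. The 250 bases before the start are printed 5′ to 3′ on the gene's strand. Capitals mark every match to the letters searched, on either strand: the GC box GGGCGG, the E-box CACGTG, the cAMP response element TGACGTCA and 4 forkhead words. These are TGTTTAC as the first word, TGTTTAT as the second, TATTTAC as the third and TATTTAT as the last. No word searched contains another. Rab5a (chr17:53478984-53479233, plus strand) and Rab5b (chr10:128696269-128696518, minus strand) are shown because both carried a Foxp4 and an H3K27ac promoter peak. At Rab5a both peaks lay downstream of the printed bases, which no peak reached. At Rab5b the Foxp4 peak covered the printed bases and the H3K27ac peak did not reach them. Rab3d (chr9:21918184-21918433, minus strand) is shown because its whole promoter lay inside peaks of both lists. Rab7 (chr6:88045271-88045520, minus strand) holds forkhead letters, Rab1a (chr11:20201162-20201411, plus strand) had the highest H3K27ac score, and Rab25 (chr3:88548280-88548529, minus strand), an epithelial Rab, had no peak.
Rab5a: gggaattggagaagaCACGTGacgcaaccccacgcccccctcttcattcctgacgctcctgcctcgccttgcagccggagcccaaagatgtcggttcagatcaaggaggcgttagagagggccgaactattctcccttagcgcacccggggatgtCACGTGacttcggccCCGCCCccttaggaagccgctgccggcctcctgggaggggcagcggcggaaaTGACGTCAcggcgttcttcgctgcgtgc
Rab5b: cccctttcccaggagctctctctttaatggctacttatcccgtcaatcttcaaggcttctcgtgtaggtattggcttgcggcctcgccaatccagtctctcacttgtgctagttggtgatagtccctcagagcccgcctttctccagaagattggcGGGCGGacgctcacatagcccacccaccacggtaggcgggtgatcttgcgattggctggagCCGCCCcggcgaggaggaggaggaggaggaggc
Rab3d: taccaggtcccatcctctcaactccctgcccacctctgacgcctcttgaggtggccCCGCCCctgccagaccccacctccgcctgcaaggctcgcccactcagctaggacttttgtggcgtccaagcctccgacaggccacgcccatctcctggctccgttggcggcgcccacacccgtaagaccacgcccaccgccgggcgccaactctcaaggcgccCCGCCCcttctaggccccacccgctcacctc
Rab7: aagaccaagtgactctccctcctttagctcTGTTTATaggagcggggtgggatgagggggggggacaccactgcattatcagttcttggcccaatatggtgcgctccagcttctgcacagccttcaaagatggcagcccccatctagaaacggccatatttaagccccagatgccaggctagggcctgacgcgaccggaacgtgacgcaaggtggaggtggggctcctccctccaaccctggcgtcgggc
Rab1a: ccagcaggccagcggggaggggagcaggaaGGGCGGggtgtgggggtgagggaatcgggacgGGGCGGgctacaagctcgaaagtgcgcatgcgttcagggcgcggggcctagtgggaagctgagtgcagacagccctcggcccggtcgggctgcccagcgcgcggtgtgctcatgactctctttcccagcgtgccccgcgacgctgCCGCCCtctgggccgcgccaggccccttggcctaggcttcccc
Rab25: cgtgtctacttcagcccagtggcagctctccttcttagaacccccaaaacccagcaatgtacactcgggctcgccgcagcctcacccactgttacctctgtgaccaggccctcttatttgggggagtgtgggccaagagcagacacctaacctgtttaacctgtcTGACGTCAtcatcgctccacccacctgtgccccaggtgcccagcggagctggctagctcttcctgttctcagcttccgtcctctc

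Where a sequence was matched, Rab promoters were GC-rich and rarely held the forkhead letters. Rab4a, Rab30 and Rab36, which had Foxp4 promoter peaks, had no matched sequence. Nor had Rab2a, Rab7b, Rab27b, Rab37, Rab38 and Rab44, which had Foxp4 peaks elsewhere. Over windows of 300 bases (250 before the start to 50 after it), the median GC content was 61.2% at the 60 Rab starts and 57.0% at 20488 protein-coding starts. It was 64.2% (55.3 to 75.3%) at the 24 starts of Rab genes with an H3K27ac promoter peak and 58.5% (35.7 to 78.7%) at the other 36, so the ranges overlapped. All protein-coding starts showed medians of 62.3% and 54.3% in the same split. The GC box letters, bound by Sp1-type factors, were in 68.3% of Rab windows and in 47.6% of all windows. With and without an H3K27ac promoter peak, they were in 83.3% and 58.3% of Rab windows. The same split gave 65.7% and 40.2% over all starts. At least 1 of the 4 forkhead words was in 3 Rab windows (5.0%), at Rab7, Rab39b and Rab43, and in 12.7% of all windows. With and without an H3K27ac promoter peak, the forkhead share was 4.17% and 5.56% of Rab windows, and 8.15% and 14.5% over all starts. Of the 3 Rab genes with a forkhead word only Rab7 had peaks, and the window with its match overlapped none of them. The E-box letters, read by basic helix-loop-helix factors, were in 10.0% of Rab windows and 8.03% of all. Rab5a held the E-box at 235 and 95 bases before its start and the cAMP element at 28 bases before it. The cAMP element was in 2 Rab windows (3.33%, against 2.3% of all), at Rab5a and, 85 bases upstream, at Rab25. Only the Rab3d and Rab5b windows overlapped a Foxp4 peak, and the sequences of the Foxp4 peaks themselves were not searched. A match is a description of letters and does not show that a factor binds.

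H3K27ac lay at the promoters of Rab genes of several routes, among them Rab5a, Rab5b and Rab5c of early endosomes, Rab1a and Rab1b of the secretory pathway and Rab11a of recycling endosomes. Of the 59, 23 (39.0%, interval 26.5 to 52.6%) had an H3K27ac promoter peak, against 26.0% of all protein-coding genes. Any assigned H3K27ac peak was present at 32 Rab genes (54.2%), against 37.5% of all genes, and 9 of these had none at the promoter. A promoter with such a peak is called acetylated below. The highest-scoring promoter peak per gene ranged from 23 to 153, with a median of 62 over the 23 genes and of 52 over all genes with such a peak. The score is the authors' value for a peak and is used here only to rank peaks within a list. Most centres lay just inside the gene. Of 24 Rab promoter peaks, 18 had the centre downstream of the start, as did 71.1% of all H3K27ac promoter peaks. The count depends on how near the start a centre must be: with a window of 500 bp it was 13 (22.0%, against 19.3% of all genes), and by the authors' own promoter class it was 9 (15.3%, against 12.6%).

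**Figure D1:**
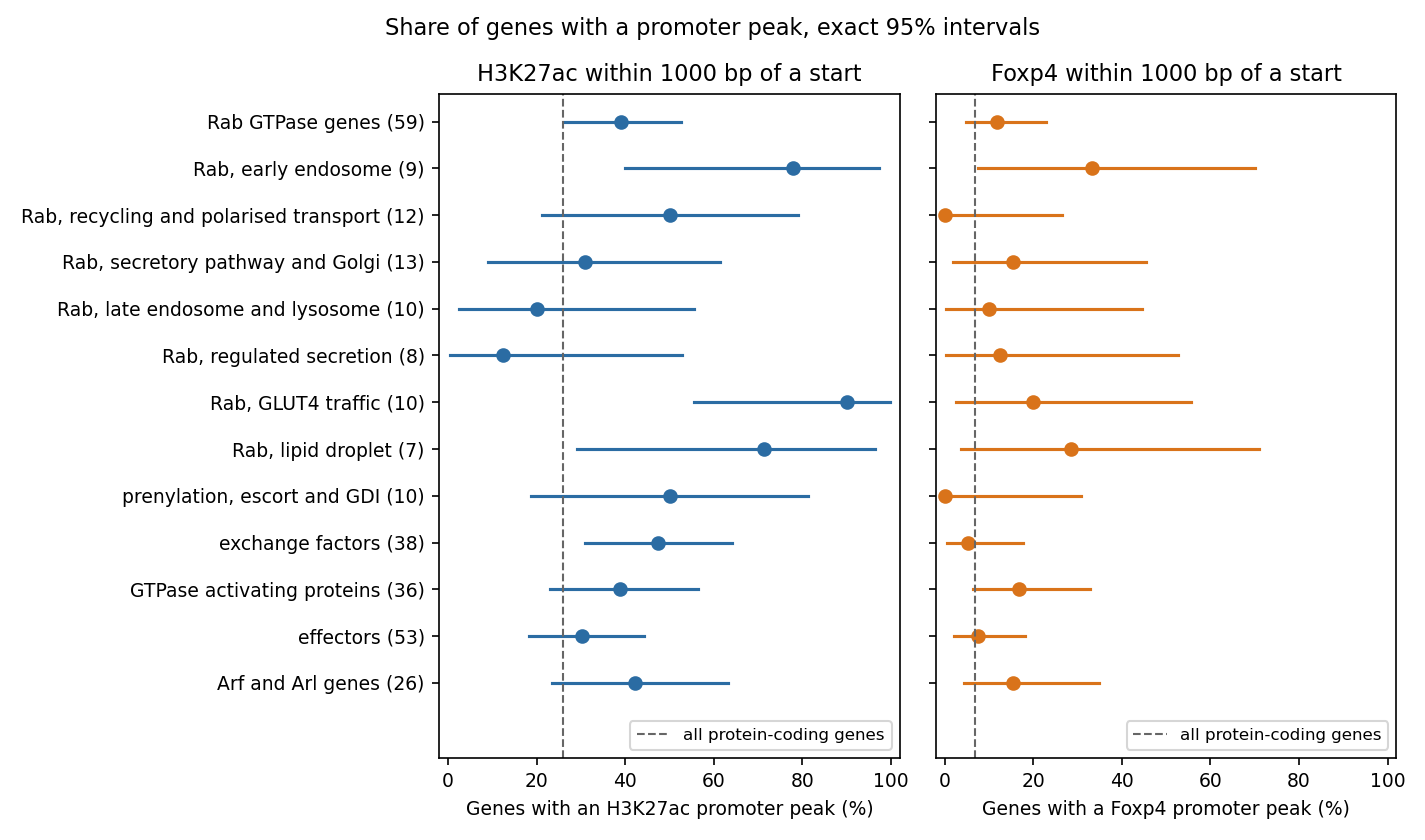
Share of genes (%) with an H3K27ac promoter peak (left) and a Foxp4 promoter peak (right) in each list, with the number of genes in brackets; points are shares, lines exact 95% intervals and the dashed line is the share over all protein-coding genes (26.0% and 6.77%). The GLUT4 traffic and early endosome Rab genes sit furthest to the right for H3K27ac, at 90.0% and 77.8%, and these 2 lists share members. Lists were chosen with earlier results of these data known.

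Of the early endosome genes, 7 of 9 had an H3K27ac promoter peak (77.8%, interval 40.0 to 97.2%, against 26.0% of all genes). Differences between role lists were not tested, and the intervals of all 7 lists overlap. The 7 included all 3 genes of Rab5, which drives fusion of early endosomes. Rab5a had a score of 99 (chromosome 17, 53479415 to 53480110, a CpG island, centre 528 bp downstream of the start), higher than 95.5% of the list. Rab5c had 79 (chromosome 11, 100737710 to 100738202, intron 1), and Rab5b 54 (chromosome 10, 128695851 to 128696207, a CpG island). Both genes of Rab4, which returns cargo quickly to the surface, had low scores, 37 at Rab4a and 28 at Rab4b. Rab22a, of early and recycling endosomes, had 55. Rab21, which carries integrins, had 48 at the start (chromosome 10, 115315029 to 115316118). A further 4 H3K27ac peaks of Rab21, scoring 66, 38, 34 and 23, lay between 12995 and 17705 bp upstream, so that its highest score was not at the promoter. Rab20 and Rab31 had no assigned peak. By the authors' promoter class 3 of the 9 were acetylated, against 12.6% of all genes.

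Recycling and polarised transport genes had 6 of 12 acetylated promoters (50.0%, interval 21.1 to 78.9%, which includes the 26.0% of all genes). Rab14, which works between endosomes and the Golgi, scored 96 (chromosome 2, 35199889 to 35201036, a CpG island in intron 1). Rab11a, the main Rab of recycling endosomes, scored 83 (chromosome 9, 64737216 to 64737953, exon 1). Rab10, required for GLUT4 delivery in fat cells, scored 76 (chromosome 12, 3308700 to 3309959, exon 1). A second H3K27ac peak of Rab10 lay in intron 1, 26285 bp downstream, with a score of 39. Rab35 scored 37, Rab13 31 and Rab8a 29, all 3 under the list-wide median of 40. The close relatives Rab11b and Rab8b had no promoter peak: Rab11b had 2 peaks in intron 1 (35 and 24, at 3843 and 2369 bp downstream) and Rab8b had 1 of score 41 at 31464 bp. Rab12, Rab15, Rab17 and Rab25 had no peak. The count was 3 with the 500 bp window and in the higher-scoring 50% of the list (19.3% and 18.5% of all genes). By the authors' class it was 1 (12.6% of all genes).

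Of the secretory and Golgi genes, 4 of 13 had an H3K27ac promoter peak (30.8%, interval 9.09 to 61.4%, near the 26.0% of all genes), and all 4 scored above the median of 52. Rab1a, which governs traffic from the endoplasmic reticulum to the Golgi, had the highest score of all Rab genes, 153, higher than 99.42% of the H3K27ac list (chromosome 11, 20201392 to 20202765, intron 1). Its relative Rab1b had 61 (chromosome 19, 5106088 to 5107039). Rab2a, which acts in the return direction, had 89 (chromosome 4, 8535586 to 8536730, a CpG island), while Rab2b had no peak. Rab33b, a Golgi Rab that also serves autophagy, had 62 over the 325 bp just before its start. Rab18, the Rab best known from the lipid droplet surface, had no promoter peak and 1 H3K27ac peak of score 40 in intron 2, 7633 bp downstream. Rab6b, Rab19, Rab33a and Rab43 had no assigned peak, nor had Rab6a. The count was 2 with the 500 bp window (19.3% of all genes) and 1 by the authors' class (12.6%).

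Late endosome and lysosome genes had 2 of 10 (20.0%, interval 2.52 to 55.6%, which includes 26.0%). These were Rab24, an autophagy Rab, with 91 (chromosome 13, 55321215 to 55322491), and Rab7, the central Rab of late endosomes and lysosomes, with 87 (chromosome 6, 88043773 to 88045215). The Rab24 peak spans a start shared with Prelid1, which is transcribed from the other strand 75 bp away. Rab32, of lysosome-related organelles and mitochondria, had the widest Rab peak, 2159 bp with a score of 51, whose centre lay 1170 bp downstream and so just outside the promoter window. Rab7b had 2 H3K27ac peaks, scores 69 and 26, at 1421 and 2768 bp downstream. Rab29 had 1 of score 56 at the end of the gene. Rab9, Rab9b, Rab39 and Rab39b had no assigned peak. The count was 1 with the 500 bp window (19.3% of all genes) and 4 with 3000 bp (28.2%).

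Regulated secretion genes had 1 of 8 (12.5%, interval 0.316 to 52.7%, which includes 26.0%), the single gene being Rab3d with a score of 23. Rab3d is the Rab3 form of exocrine glands and fat cells, and its score was the lowest of the 23. Rab3a, the synaptic vesicle Rab, had an H3K27ac peak of score 84 and 1959 bp centred 1601 bp upstream (chromosome 8, 70752099 to 70754057), and a second of score 37 inside Pde4c. Rab3c had 1 of score 43 in intron 2, 43471 bp from the start, and Rab3b had none. Of the cilium genes, Rab28 (73 and 33) and Rab34 (50) had promoter peaks and Rab23, an inhibitor of hedgehog signalling, had none. Rab40c, which has a SOCS box and works in ubiquitin ligases, had 82 (chromosome 17, 25920190 to 25920732). Rab44 had 2 H3K27ac peaks of 49 and 23, neither at its promoter, while Rab40b and Rab42 had no peak.

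**Figure D2:**
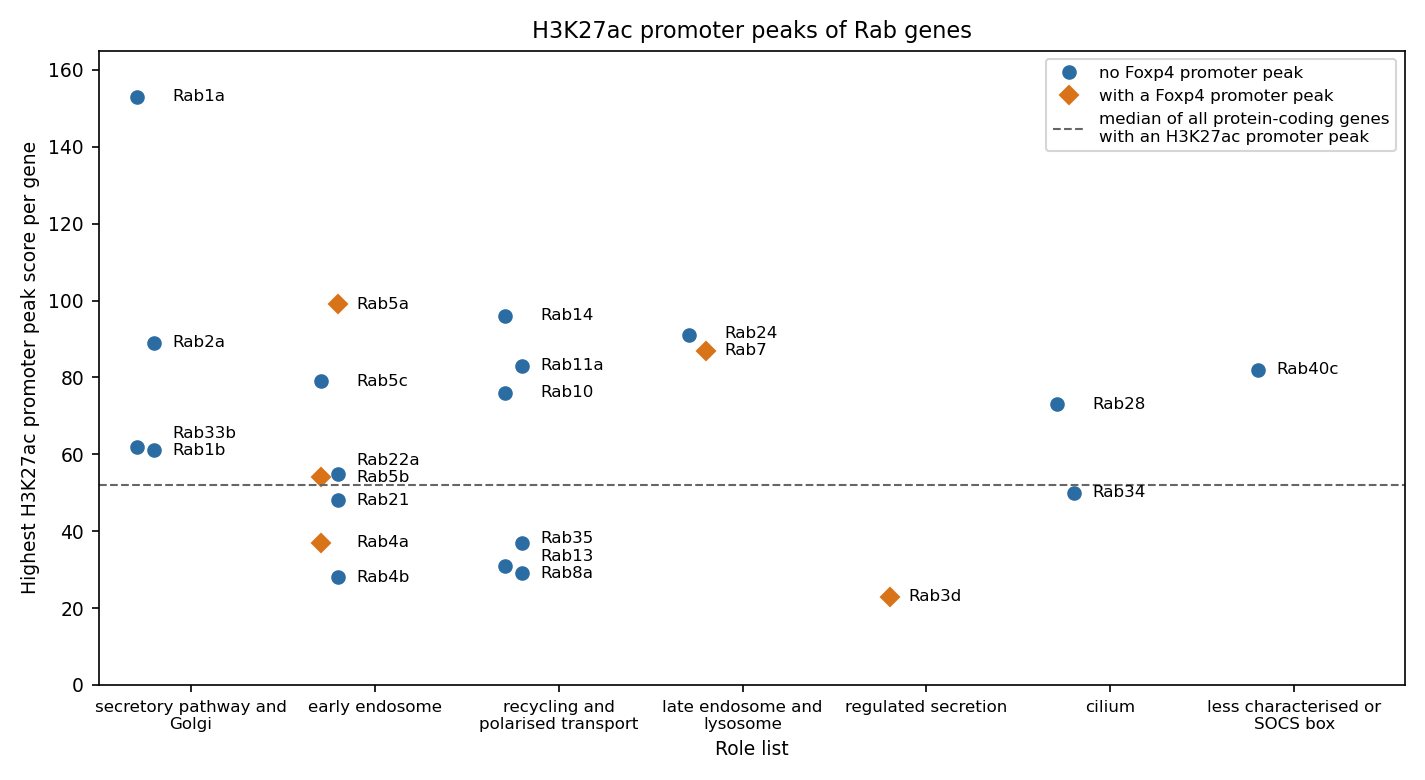
Highest H3K27ac promoter peak score (authors' score, no unit) of the 23 Rab genes that have such a peak, by role list; diamonds mark genes that also have a Foxp4 promoter peak, and the dashed line is the median of all protein-coding genes with an H3K27ac promoter peak (52). Rab1a stands highest at 153 and Rab3d lowest at 23.

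Most Rab genes on the list for GLUT4 traffic had an acetylated promoter with the 1000 bp window. The list was chosen with earlier results of these data known, and the interval does not allow for that choice. Of 10 genes, 9 had an H3K27ac promoter peak (90.0%, interval 55.5 to 99.7%, against 26.0% of all genes): Rab4a, Rab4b, Rab5a, Rab8a, Rab10, Rab11a, Rab13, Rab14 and Rab35. The exception was Rab31. Their scores spread from 28 to 99 with a median of 37. The count fell to 4 with a window of 500 bp, at which 19.3% of all genes had such a peak. It was 2 by the authors' promoter class (12.6% of all genes) and 4 in the higher-scoring 50% of the list (18.5%). Of 7 lipid droplet Rab genes, 5 had a promoter peak (71.4%, interval 29.0 to 96.3%), and Rab18 and Rab32 had H3K27ac peaks elsewhere. With the 500 bp window the lipid droplet count was 0 (19.3% of all genes), and by the authors' class it was 1 (12.6%).

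Shared and alternative starts affect some of these calls. At Rab13 the assigned peak lay at a start 7069 bp inside the gene, while an H3K27ac peak of score 65 lay 560 bp before its first start and was given to Rps27rt. At Rab22a a peak of score 45 lay 574 bp before the start, on the other side from its own peak, and was given to Ppp4r1l-ps. Rab6a had an H3K27ac peak of score 51 centred 371 bp downstream of its start, given to Mrpl48, whose start is 36 bp away on the other strand. Rab20 had 1 of score 22 centred 496 bp downstream, given to E230013L22Rik. Counted by position and not by assigned gene, 25 Rab genes (42.4%) had an H3K27ac promoter peak, against 28.6% of all genes. Genes without a sequence in the RefSeq set kept the authors' assignment in that count. One of them was Rab30: the start that its own peak refers to (chromosome 7, 92741714) had an H3K27ac peak of score 79 centred 692 bp upstream and a Foxp4 peak of score 41, a recurrent value, centred 366 bp upstream (92740834 to 92741863). Both were given to 4632427E13Rik, and they overlap each other.

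**Figure D3:**
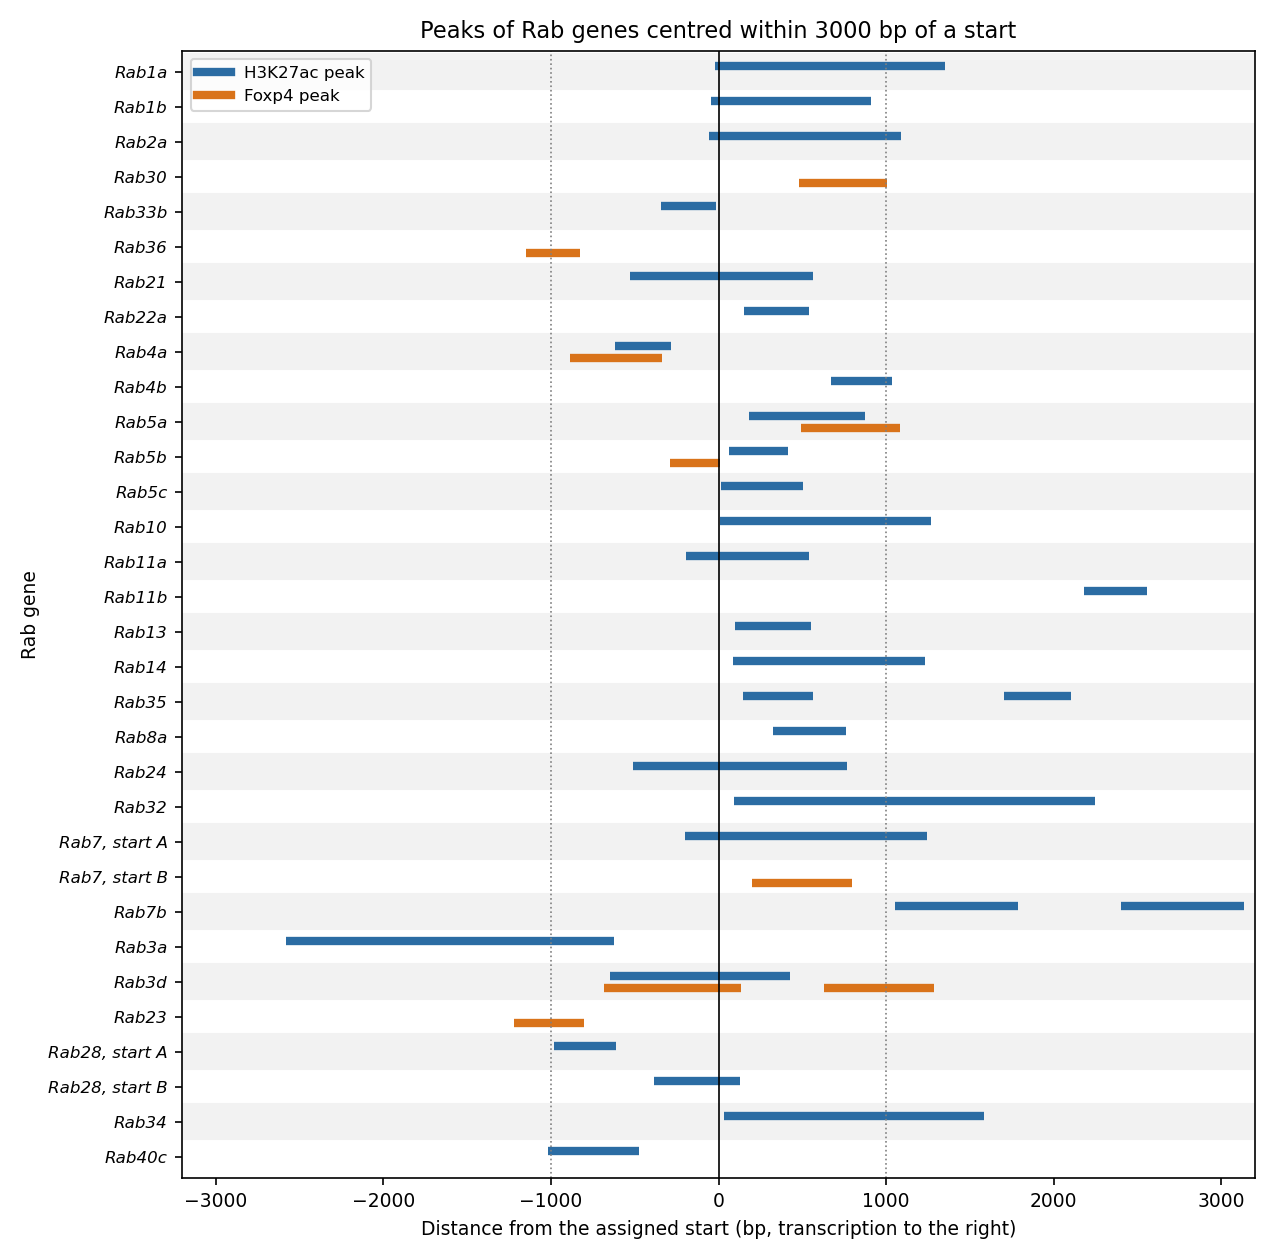
Peaks of Rab genes whose centre lies within 3000 bp of the assigned start, drawn to scale as distance from that start (bp, transcription to the right), with H3K27ac above and Foxp4 below in each row and dotted lines at 1000 bp. Peaks of both lists meet at Rab3d, Rab4a and Rab5a and lie side by side at Rab5b; Rab7 and Rab28 have rows for starts A and B because their peaks belong to different starts.

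Foxp4 peaks were assigned to 19 Rab genes (32.2%), against 36.6% of all protein-coding genes. At the promoter 7 had one (11.9%, interval 4.91 to 22.9%), and the interval includes the 6.77% of all genes. Of all 33 peaks, 8 (24.2%) were promoter peaks, against 9.48% of the whole Foxp4 list. By class, 17 lay in introns, 11 were intergenic and 5 were in the authors' promoter class. A repeat was the detailed annotation of 11 (33.3%), against 32.0% of all Foxp4 peaks. Scores ran from 20 to 65 with a median of 32, beside a median of 27 for the list. Most stood at recurrent values: 24 of 33 (72.7%) had a score of 21, 27, 34, 41, 49 or 57, values that hold 73.1% of the whole list. Without those peaks 9 Rab genes kept a Foxp4 peak, and the share of all genes that did was not counted. A promoter peak was kept by 4 (Rab3d, Rab5a, Rab5b and Rab30), 6.78% against 3.87% of all genes. With a window of 500 bp 3 Rab genes had a promoter peak (5.08%, against 4.57%).

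**Figure D4:**
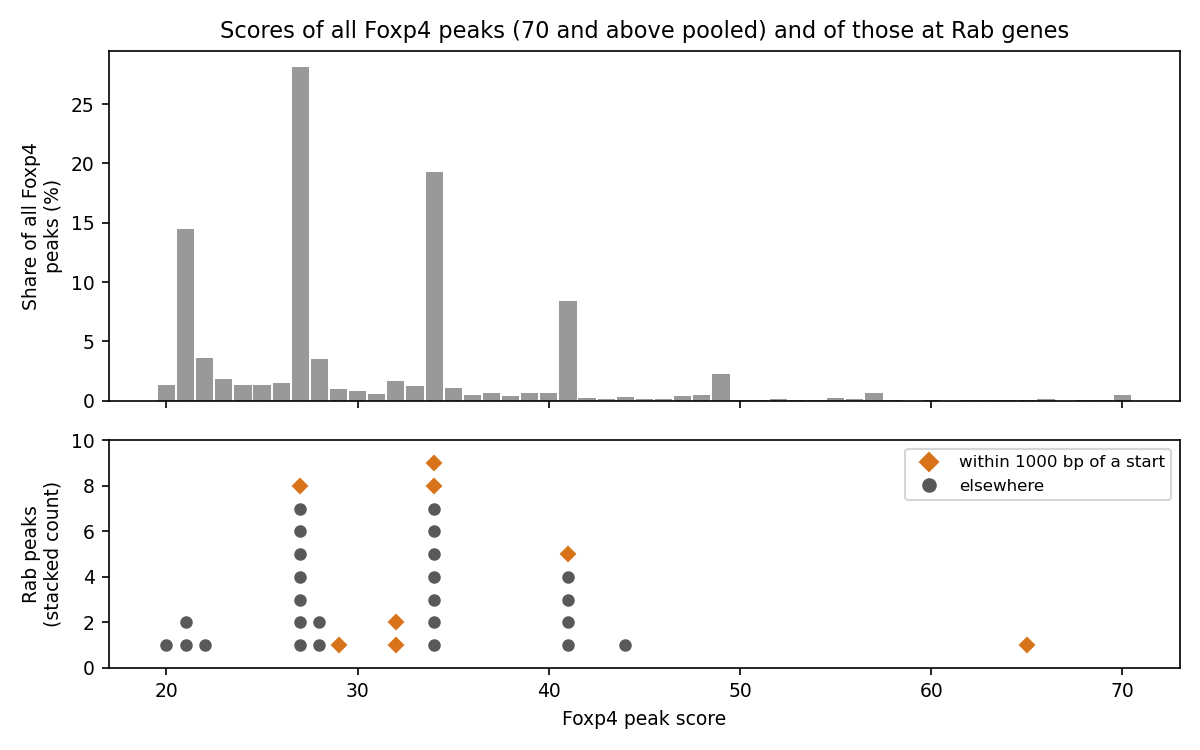
Upper panel, share (%) of all Foxp4 peaks at each score, with 70 and above pooled; lower panel, the 33 Foxp4 peaks of Rab genes stacked by score, with diamonds for peaks within 1000 bp of a start. The Rab peaks pile up at 27 (8 peaks), 34 (9) and 41 (5), which with 21 are the 4 most frequent scores of the whole list, and the Rab30 peak stands alone at 65.

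Rab30, a Golgi Rab, carried the highest-scoring Foxp4 peak of the family. It scored 65, higher than 99.3% of the list, and lay 744 bp downstream of the start (chromosome 7, 92742197 to 92742719). The authors' class placed it at the start of the non-coding gene 4632427E13Rik. It overlapped no H3K27ac peak: the nearest, the peak of score 79 upstream of the start that was given to 4632427E13Rik, ended 730 bp away (chromosome 7, 92740579 to 92741466). Rab36, related to late endosomes and the Golgi, had a Foxp4 peak of score 34 centred 987 bp upstream, just inside the promoter window (chromosome 10, 75035911 to 75036232), with no H3K27ac peak assigned. Rab23 had 1 of the same score centred 1011 bp upstream, just outside the window, in a B1 repeat. Those of Rab36 and Rab23 have a recurrent score.

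At 3 Rab genes an assigned Foxp4 peak overlapped H3K27ac, and all 3 overlaps were at promoters. The overlapping peaks near the Rab30 start were given to 4632427E13Rik and are not counted here. Seen from the other side, 3 of 47 H3K27ac peaks (6.38%) overlapped Foxp4, against 7.91% of the whole list. These 3 of 33 Foxp4 peaks (9.09%, interval 1.92 to 24.3%) compare with 8.21% of all Foxp4 peaks, and the 3 genes of 59 with 5.36% of protein-coding genes. Of the 8 promoter peaks 3 overlapped, against 42.3% of all Foxp4 promoter peaks. At Rab5a the Foxp4 peak scored 32 and lay 786 bp downstream in intron 1 (chromosome 17, 53479726 to 53480315), and 385 bp of it, 65.3%, were shared with the H3K27ac peak of score 99. At Rab4a a Foxp4 peak of score 41, a recurrent value, lay 614 bp upstream (chromosome 8, 123805108 to 123805656) and shared 276 bp, 50.3%, with the H3K27ac peak of score 37. At Rab3d a Foxp4 peak of score 32 spanned the start (chromosome 9, 21918049 to 21918865) and shared 781 bp, 95.6%, with the H3K27ac peak of score 23. A second Foxp4 peak of Rab3d, score 34, lay 955 bp downstream and 199 bp outside that H3K27ac peak.

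Rab5b and Rab7 complete the 5 Rab genes with promoter peaks in both lists, which 3.7% of all protein-coding genes had. They are 21.7% of the 23 acetylated ones against 14.2% of all acetylated genes. At Rab5b a Foxp4 peak of score 29 covered the sequence printed above, centred 141 bp upstream (chromosome 10, 128696259 to 128696559). The H3K27ac peak of score 54 lay on the other side of the start, with 51 bp between both peaks. The Rab5b window holds 2 GC boxes and none of the forkhead words. At Rab7 the Foxp4 promoter peak, of the recurrent score 27, belonged to another start inside the gene (chromosome 6, 88018997 to 88019598), and 24174 bp separated it from the H3K27ac peak. A second Foxp4 peak of Rab7 with the same score lay at 9459 bp from its start. Counted by position and not by assigned gene, Rab7 dropped out. That count left 6 Rab genes with a Foxp4 promoter peak (10.2%, against 7.4% of all genes).

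The other 25 Foxp4 peaks of Rab genes lay away from promoters. Of these 0 overlapped H3K27ac, against 4.64% of all Foxp4 peaks away from promoters, a share at which about 1 peak of 25 would overlap. Rab28, a Rab of cilia and photoreceptors, had the most, 8 peaks, all at recurrent scores of 27, 34 or 41. Of these, 7 lay between 220623 and 1016798 bp downstream in intergenic sequence and 1 in intron 4 at 43187 bp. All 7 intergenic peaks were given to Rab28 as the gene with the nearest start. An H3K27ac peak of score 24, also given to Rab28, lay 798 bp from the outermost. With the peak of Rab38 at 400668 bp, 8 of 33 Rab peaks (24.2%) were over 100 kb from a start, against 21.6% of all Foxp4 peaks. Nearer to starts, Rab1a had a peak of score 44 in intron 1, 7348 bp downstream (chromosome 11, 20208558 to 20208963), the second highest Rab score. Rab10 had 1 of score 28 in a B3 repeat of intron 1, 4913 bp downstream, and Rab5a a second of score 34 in an LTR repeat of intron 2. Rab4a had 2 more, of 41 and 34, at 21931 bp upstream and 16939 bp downstream. Rab7b and Rab44 had 2 each, scoring 34 and 22, and 21 and 20. Rab2a, Rab14, Rab21, Rab27b and Rab37 had 1 each, scoring 27, 27, 28, 41 and 27. Some lay inside other genes: the Rab14 peak in Cntrl, 1 peak of Rab7b in Ctse and 1 of Rab44 in Cpne5.

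By assigned gene, 25 of the 38 Rab genes with a peak (65.8%) appeared in 1 list only, near the 62.0% of all protein-coding genes with a peak. These were 19 in the H3K27ac list alone and 6 in the Foxp4 list alone, with 13 in both. The 6 were Rab23, Rab27b, Rab30, Rab36, Rab37 and Rab38. Neither list held a peak assigned to the other 21 genes (46.3% of all protein-coding genes had none): Rab2b, Rab3b, Rab6a, Rab6b, Rab9, Rab9b, Rab12, Rab15, Rab17, Rab19, Rab20, Rab25, Rab26, Rab27a, Rab31, Rab33a, Rab39, Rab39b, Rab40b, Rab42 and Rab43. They include forms best known from particular tissues, such as Rab25 of epithelia, as well as widely expressed ones such as Rab6a and Rab9. At Rab6a and Rab20 the absence is one of assignment. H3K27ac peaks given to other genes lay within 1000 bp of their starts. Foxp4 peaks given to other genes also lay inside Rab6b and Rab39, away from their starts.

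Genes of the Rab pathway were described from lists of 137 genes, of which 53 are effectors. An H3K27ac promoter peak was present at 53 (38.7%, interval 30.5 to 47.4%), against 26.0% of all genes and 39.0% of the Rab genes. A Foxp4 promoter peak was present at 12 (8.76%, interval 4.61 to 14.8%, which includes the 6.77% of all genes). Of the prenylation, escort and GDI genes 5 of 10 were acetylated, led by Gdi2, a GDP dissociation inhibitor, with a score of 136, and by both subunit genes of Rab geranylgeranyl transferase, Rabggtb (80) and Rabggta (72). None of the 10 had a Foxp4 promoter peak. Exchange factors had 18 of 38 acetylated (47.4%, interval 31.0 to 64.2%), with the highest promoter scores at Dennd6b (71), Rabgef1 (65), which activates Rab5, and Dennd4c (62), which activates Rab10. Their Foxp4 promoter peaks were at Dennd6b (33, overlapping H3K27ac) and Rab3il1 (33).

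GTPase activating proteins had 14 of 36 acetylated promoters (38.9%, interval 23.1 to 56.5%, which includes 26.0%). At 6 a Foxp4 promoter peak was present (16.7%, interval 6.37 to 32.8%, which includes 6.77%). Their highest H3K27ac promoter scores were at Tbc1d9b (94), Tbc1d10b (77) and, with 69 each, Sgsm2 and Tbc1d24. Tbc1d31 had a score of 96 away from its promoter. The Foxp4 peaks were at Tbc1d15 (44), Tbc1d22b (40), Tbc1d22a (34), Sgsm2 (32), Tbc1d31 (24) and Tbc1d13 (23), and those at Tbc1d13, Tbc1d15 and Tbc1d22a overlapped H3K27ac. Tbc1d4 and Tbc1d1, which restrain GLUT4 traffic through Rab10 and its relatives, were looked up after the values were seen. Tbc1d4 had 1 H3K27ac peak of score 30 and 1 Foxp4 peak of score 27, neither at the promoter. Tbc1d1 had 8 H3K27ac and 4 Foxp4 peaks, none at the promoter, and 2 of the Foxp4 peaks, 33152 bp upstream (57, a recurrent score) and 59550 bp downstream (32), overlapped H3K27ac. Effectors had 16 of 53 acetylated (30.2%, near the 26.0% of all genes), with Uso1, a tether that binds Rab1, and Fyco1, an adaptor of Rab7, both at 104, and Osbpl1a, another Rab7 partner, at 85. Their Foxp4 promoter peaks were at Uso1 and Golga2 (44 each), Rph3al (21) and Rufy1 (20), and those at Uso1 and Rufy1 overlapped H3K27ac.

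Another family of small GTPases had shares near those of the Rab genes, and no test of a difference was made. Arf and Arl genes, which act in vesicle budding, had an H3K27ac promoter peak at 11 of 26 (42.3%, interval 23.4 to 63.1%) and a Foxp4 promoter peak at 4 (15.4%, interval 4.36 to 34.9%). Both intervals include the shares over all genes, 26.0% and 6.77%.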

How the data were processed

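Each deposited file lists the peaks of 1 ChIP library with a score per peak, annotated by the authors with HOMER annotatePeaks.pl on mm10, per the file headers. The submitters' processing notes name Bowtie2, Picard, SAMtools, MACS2 and deepTools 3.3.0. What the score measures, and how the input entered peak calling, is not given in the sources used here.

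Only peaks of the assembled autosomes, X and Y were kept, leaving out 1. Genes were matched by Entrez identifier to protein-coding genes with a curated transcript in RefSeq of GRCm38.p6, the assembly of mm10. Peaks were assigned by the deposited nearest start, so the starts of one gene can differ between peaks. Overlap meant at least 1 shared bp. A score counted as recurrent where 100 or more Foxp4 peaks had it and its count exceeded 3 times that of each adjacent score. A further comparison list is not reported here. No test was run, for lack of replicates. Members, lists and the rule for named genes were chosen with earlier results of these data known. The rule takes every Rab gene with a Foxp4 promoter peak, with overlap, among the 10 highest H3K27ac promoter scores, with at least 4 peaks, or in the GLUT4 and lipid droplet lists. From the pathway lists it takes genes with a Foxp4 promoter peak and the 3 highest H3K27ac scores. The overlap and recurrent-score code was tested on simulated data. Alternatives changed the promoter window, the assignment, the overlap rule and the peaks used. Tables were handled in pandas 2.3.3 and numpy 2.4.6, intervals came from scipy 1.17.1, and plots from matplotlib 3.10.9.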

Additional observations from a re-analysis of the deposited data

How the results depend on the processing

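Of 29 alternative values of the 7 main counts, 19 stayed within 1.5 times the reported count and 10 did not. With a promoter window of 500 bp, Rab genes with an H3K27ac promoter peak went from 23 to 13, those with a Foxp4 promoter peak from 7 to 3, and pathway genes with a Foxp4 promoter peak from 12 to 7. With 3000 bp that last count was 20. Shares of all genes moved as well: with 500 bp they were 19.3% for H3K27ac and 4.57% for Foxp4. With 3000 bp the Foxp4 share was 10.4%. By the authors' promoter class, Rab genes with an H3K27ac promoter peak numbered 9, and pathway genes 24 for H3K27ac (from 53) and 7 for Foxp4. The shares of all genes by that class were 12.6% for H3K27ac and 4.47% for Foxp4. Without recurrent scores, Rab genes with a Foxp4 promoter peak numbered 4, and those with any Foxp4 peak 9, from 19. Recurrent scores hold 73.1% of all Foxp4 peaks. Without them 3.87% of all genes had a Foxp4 promoter peak, and the share with any Foxp4 peak was not counted. In the higher-scoring 50% of each list, 1 Foxp4 peak of Rab genes overlapped H3K27ac, from 3. Other causes than the changed window or peaks were not tested. Counts in the role, GLUT4 and lipid droplet lists and the Arf and Arl genes moved past 1.5 times, up or down, in 39 of 110 cases. No paired analysis was possible because each antibody has 1 library. Depth and the signal of the input at these genes are unknown, which limits every absent peak.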

Other observations

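Several peaks lay inside Rab genes but were given to other genes by the nearest start. Rab20, which lies on early endosomes and phagosomes and had no assigned peak, held 3 H3K27ac peaks with scores of 46, 34 and 22 and 2 Foxp4 peaks with scores of 33 and 28, all assigned to E230013L22Rik. None of these overlapped a peak of the other list. Foxp4 peaks without an H3K27ac overlap also lay inside Rab8b (score 34, given to Aph1c), Rab6b (27, given to Srprb), Rab39 (27, given to Cul5), Rab22a (21, given to Mir6340), Rab37 (41, given to Cd300lf) and Rab3c (27, given to Mir1904). These genes were named after their values were seen. The scores of 21, 27, 34 and 41 are recurrent ones.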
